A study of Mus musculus with 10 samples.

Results

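The change in testis transcripts between postnatal day 4 (P4) and postnatal day 7 (P7) was followed in mice labelled as a conditional knockout (cKO) of Lsm7. The comparison was chosen by the sample labels alone: 3 P7 cKO libraries against 3 P4 cKO libraries, 6 of the 10 libraries of the series, over the 18419 genes with enough reads to test. All animals were C57BL/6. The cKO genotype is labelled Lsm7-flfl-stra8, which names a floxed Lsm7 and Stra8, a gene of early spermatogonia, without saying what drives the recombinase or at which age. The other 4 libraries, 2 at each stage, are wild type (WT). By their labels the samples are germ cells from testis, but the RNA protocol takes total RNA from testis and describes no sorting. Nothing in the labels says that libraries came from separate animals or litters, so p-values here reflect only how far these samples spread, and that spread may be technical.

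In the first week after birth, the germ cells of a mouse testis, the gonocytes, resume division, move to the edge of the seminiferous tubule and become spermatogonia. Some form the undifferentiated pool that holds the stem cells, and others respond to retinoic acid, switch on Stra8 and Kit and differentiate on the way to meiosis. LSM7 is a subunit of the LSm rings, which bind the U6 small nuclear RNA of the spliceosome and, in another form, the ends of messenger RNAs that are being degraded. Sertoli cells support the germ cells inside the tubule, peritubular myoid cells surround it, and Leydig cells, fibroblast-like progenitors, vessels and macrophages lie between tubules.

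Between P4 and P7 the cKO testis libraries gained germ cell transcripts and lost transcripts of the interstitium. Genes used by germ cells in general, genes of the piRNA pathway and genes of meiosis rose together, most by 1 to 3 log2 units, while the transcripts of interstitial progenitors, extracellular matrix, vessels and macrophages fell by about 1 log2 unit. Of the genes linked to the stem end of the spermatogonial pool, Gfra1 and Id4 did not pass the test, while Nanos2 and Foxc2 rose. The Sertoli cell genes gave no common direction. In bulk testis RNA, fewer cells of a type and less RNA per cell cannot be told apart, and the same holds for gains.

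Depth was 30.9 to 41.8 M reads assigned to genes in the cKO libraries and 28.8 to 33.0 M in the WT libraries. Single genes are given in CPM (counts scaled to a common library size) after scaling by TMM, which sets each library's scale so that most genes do not change, and tests are edgeR's quasi-likelihood test with Benjamini-Hochberg adjustment over all genes tested and a threshold of 0.05. A chi-square test of counts over genes, divided by its degrees of freedom, gave 1.98 for the pair of P7 WT libraries and 23.49 to 122.88 for pairs within the other groups. The P7 WT pair thus differed by little more than sampling noise and was summed and counted as 1 sample. P7 cKO library 1 stood apart, at 117.29 and 122.88 from the others of its group, which were at 23.49 from each other. The first principal component of the 6 cKO libraries carried 61.5% of the variance and separated the stages, and the second, with 17.2%, put P7 cKO library 1 at 53.85 and the others of its group at -39.95 and -37.29. Where a call or a count turned on it, the value without it is given.

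The gene targeted by the knockout, Lsm7 (chr10:80852825-80855209, GRCm38, minus strand), was at 44.9, 50.5 and 43.6 CPM in the P4 cKO libraries. At P7 it was at 45.2 CPM in library 1 and at 26 and 20.3 CPM in libraries 2 and 3. The first P7 library thus lay within the P4 range and the others below it. The log2 difference was -0.60 ± 0.263 (SE; adjusted p = 0.107), and without P7 cKO library 1 it was -1.0 with an adjusted p of 0.00117. The WT libraries held 36.2 and 25.7 CPM at P4 and 33.3 CPM at P7, so that the libraries labelled cKO did not hold less Lsm7 than WT at P4, nor did P7 cKO library 1 at P7. The name cKO is used throughout as the label gives it. A count over the whole gene in whole testis also takes in cells that do not express Stra8, and which exons are floxed is not given in the sources used here.

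Of the 18419 genes, 5372 (29.2%) passed the test, 2663 of them higher at P7 (14.5%) and 2709 lower (14.7%). The genes that rose had a median log2 fold change of 1.19, with 614 above 2, and those that fell had a median of -0.96, with 232 below -2. The 3 P7 values lay wholly above or below the 3 P4 values in 8497 genes (46.1%). With libraries scaled by their totals alone, the median of all genes moved from 0.00 to 0.18 and 68.2% of the calls were higher in place of 49.6%. Differences are given on the TMM scale throughout. Without P4 cKO library 2 or 3 the count of calls was 3520 or 3571.

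**Figure D1:**
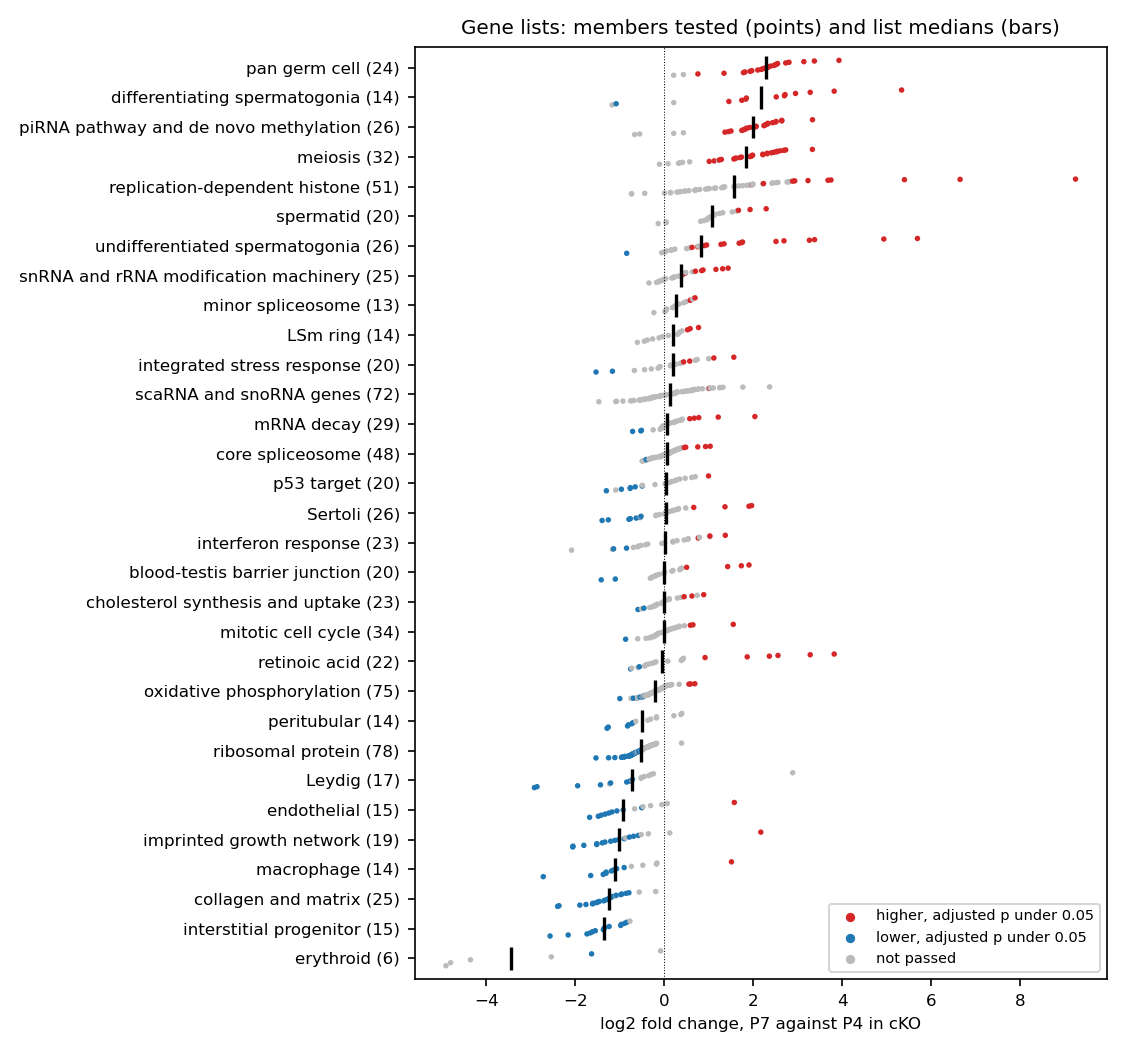
Log2 fold change of P7 against P4 in cKO (horizontal axis) for each tested member of 31 gene lists, with the number tested in parentheses. Points are genes, coloured by whether they passed the test, and black bars are list medians. The germ cell lists lie to the right, with medians of 2.3 (pan germ cell), 1.99 (piRNA) and 1.83 (meiosis), and the interstitial lists lie to the left.

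The 10 largest rises were taken among well expressed genes (average log2 CPM of 1 or more) that passed with no overlap between the stages. They were Sox3, Dmrtb1, Neurog3, Lhx8, Nkx1-1, Tbx22, Tmem63c, Zfp936, Grik3 and Sall1. Sox3 (chrX:60891366-60893430, minus strand), a transcription factor of spermatogonia on the way to commitment, was at 0.752, 1.44 and 1.69 CPM at P4 and at 62.2, 79.4 and 59.8 CPM at P7. Dmrtb1 (chr4:107676290-107684230, minus strand), a member of the differentiating spermatogonial list, was at 1.10, 0.342 and 1.24 CPM at P4 and at 39.8, 40.9 and 30.2 CPM at P7. Separation of the stages was a condition for these 10 genes and adds no support. The log2 fold changes were 5.69 ± 0.307 for Sox3 (adjusted p = 4.96e-06) and 5.34 ± 0.442 for Dmrtb1 (adjusted p = 3.08e-05).

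Lhx8, a LIM homeodomain factor best known in oocytes and also made by spermatogonia, was at 0.231, 0.274 and 0.211 CPM at P4 and at 11.7, 5.30 and 4.3 CPM at P7, with P7 cKO library 1 the highest. Sall1, a zinc finger factor related to the spermatogonial gene Sall4, was at 1.10, 1.44 and 1.45 CPM at P4 and at 17, 23 and 20.7 CPM at P7. Tbx22, a T-box factor, was higher in P7 cKO library 1 (13.2 CPM) than in the other P7 libraries (3.57 and 3.18 CPM), all above the P4 range of 0.171 to 0.347 CPM.

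Among undifferentiated spermatogonial genes, 15 of 26 rose and 1 fell, with a median log2 fold change of 0.83 beside 0.00 over all genes. The rise was uneven along the known order of these cells. Zbtb16, which encodes the PLZF repressor carried by the whole undifferentiated pool, was at 9.54, 8.29 and 9.90 CPM at P4 and at 104, 93.8 and 69.2 CPM at P7 (log2 3.26 ± 0.236, adjusted p = 1.09e-05). Neurog3, a bHLH factor of progenitors that are leaving the stem state, was at 0.231, 0.342 and 0.237 CPM at P4 and at 6.23, 10.9 and 7.76 CPM at P7 (log2 4.94 ± 0.365, adjusted p = 1.35e-05). Zbtb16 did not overlap between the stages, while for Neurog3, 1 of the 10 largest rises, this was a condition of the choice. Upp1 (3.38), a uridine phosphorylase, and Lin28a (2.69), an RNA-binding protein that blocks let-7 maturation, rose as well, as did Sall4 (1.74).

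Genes of the GDNF niche signal were mixed. Gfra1, the GDNF co-receptor that marks the stem-like end of the pool, was at 19.6, 15.1 and 18.5 CPM at P4. At P7 it was at 10.9 CPM in library 1 and at 24.1 and 24.3 CPM in libraries 2 and 3, so that the P7 libraries lay on both sides of the P4 range (log2 0.16 ± 0.305, adjusted p = 0.727). Id4, an inhibitor of bHLH factors in the stem cells, overlapped between stages, at 18.5, 19.96 and 13.6 CPM against 19.8, 14.1 and 16.1 CPM (log2 -0.06 ± 0.211, adjusted p = 0.862). Bcl6b (0.01) and Lhx1 (0.16), both GDNF-responsive, did not pass the test either.

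Etv5, another GDNF-responsive factor that Sertoli cells also express, was lower at P7, at 23.9, 53.8 and 54.9 CPM against 80.8, 71.4 and 86.0 CPM. Its log2 fold change of -0.84 (adjusted p = 0.0395) moved to -0.55 without P7 cKO library 1 and the call was lost without any 1 of the 3 P4 cKO libraries. Ret, the signalling receptor that pairs with GFRA1, was higher by 0.75 (adjusted p = 0.0447), a call lost without any 1 of the P4 cKO libraries or without P7 cKO library 2 or 3 (highest adjusted p = 0.146). Nanos2, an RNA-binding repressor of differentiation in stem cells, was low at both stages, at 0.347, 0.411 and 0.263 CPM at P4 and at 2.01, 2.01 and 1.82 CPM at P7 (log2 2.51 ± 0.375, adjusted p = 0.000639). Gdnf itself, the ligand from Sertoli and peritubular cells, had a log2 difference of -0.63 (adjusted p = 0.0294) that missed the threshold without P7 cKO library 1 (adjusted p = 0.0512).

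**Figure D2:**
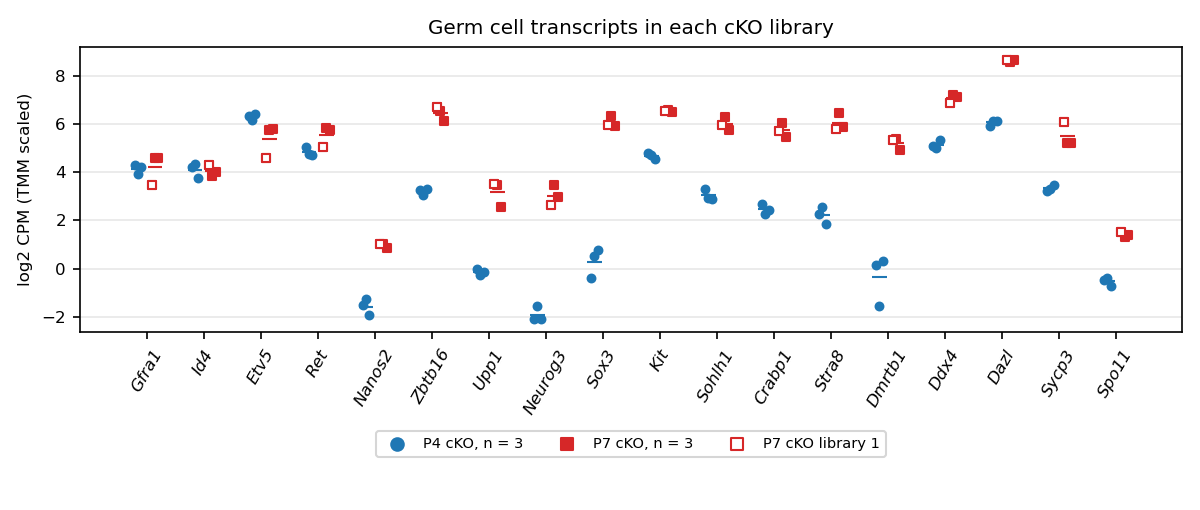
Log2 CPM of germ cell genes in each cKO library, ordered from the stem end of the undifferentiated pool to differentiating, pan germ cell and meiotic genes. Blue circles are P4 libraries, red squares P7 libraries, the open square is P7 cKO library 1 and bars are means. Gfra1 and Id4 overlap between stages, while Stra8, at 3.56 to 5.85 CPM at P4 and 55.7 to 86.9 CPM at P7, and Dmrtb1 are widely apart.

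Differentiating spermatogonial genes rose in 11 of 14 cases and fell in 1, with a median log2 fold change of 2.18. Stra8 (chr6:34920948-34939344, plus strand), the retinoic acid target that prepares the entry into meiosis, was at 4.83, 5.85 and 3.56 CPM at P4 and at 55.7, 86.9 and 58.4 CPM at P7. Its log2 fold change was 3.82 ± 0.263 (adjusted p = 7.73e-06). Kit, the stem cell factor receptor of differentiating spermatogonia, which some Leydig cells also make, was at 27.9, 26.2 and 23.1 CPM at P4 and at 92.4, 95.8 and 90.0 CPM at P7. The P7 values of Kit lay close together, and its log2 fold change was 1.85 ± 0.143 (adjusted p = 1.7e-05).

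The bHLH factors that drive differentiation, Sohlh1 (2.95) and Sohlh2 (2.72), rose together, as did Crabp1 (3.28), which binds retinoic acid in the cytoplasm, and the X-linked homeobox gene Rhox13 (2.52). Sohlh1 was at 9.92, 7.67 and 7.46 CPM at P4 and at 61.8, 78.2 and 54.0 CPM at P7. Dnmt3b, a de novo DNA methyltransferase, rose by 1.75, whereas Dnmt3a (0.21) did not pass. Prdm1, a repressor first used by primordial germ cells, was at 2.89, 2.74 and 3.85 CPM at P4 and at 1.58, 1.11 and 1.80 CPM at P7 (log2 -1.08, adjusted p = 0.0151), a call lost without P4 cKO library 3 (adjusted p = 0.0683) or P7 cKO library 2.

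Genes of the germ cell lineage as a whole rose in 22 of 24 cases, with a median of 2.3, and the other 2, Tdrd7 (0.43) and Hsf2 (0.21), did not pass. Dazl, the RNA-binding protein that licenses germ cell fate, was at 60.02, 70.5 and 70.5 CPM at P4 and at 402, 376 and 400 CPM at P7 (log2 2.55 ± 0.235, adjusted p = 4.14e-05). Ddx4, the VASA helicase of germ granules, was at 34.4, 32.3 and 39.8 CPM at P4 and at 117, 148 and 140 CPM at P7 (log2 1.93 ± 0.178, adjusted p = 4.2e-05). The X-linked Taf7l, a germ cell subunit of the general transcription factor TFIID, was at 24.2, 26.4 and 28.1 CPM at P4 and at 174, 191 and 187 CPM at P7. P7 cKO library 1 was the highest of its group for Dazl and the lowest for Ddx4 and Taf7l. The summed level of the list, in reads scaled to a common library total (RPM), was 432, 400 and 395 RPM at P4 and 1866, 1897 and 1780 at P7.

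The piRNA pathway uses small RNAs bound to PIWI proteins to silence transposons in germ cells, and 22 of its 26 tested genes rose (median 1.99). They spanned the PIWI proteins Piwil1 (2.07), Piwil2 (2.27) and Piwil4 (1.45), the helicase Mov10l1 (2.50) that feeds precursors into the pathway, the RNA methyltransferase Henmt1 (3.33), the Tudor proteins Tdrd1 (2.33), Tdrd5 (1.82) and Tdrd9 (2.06), and Mael (2.24). Mael was at 38.2, 39.1 and 37.3 CPM at P4 and at 222, 158 and 162 CPM at P7. The genes that did not pass were Tdrd7, Tdrd6 (-0.67), Dnmt3a and Dnmt3l (-0.55), the methyltransferase cofactor that gonocytes use before birth.

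Of 32 tested meiosis genes 25 rose and none fell (median 1.83), although meiosis itself starts after P7 in the mouse. Sycp3, a protein of the axis of meiotic chromosomes, was at 9.26, 9.96 and 11.1 CPM at P4 and at 67.2, 37.5 and 36.5 CPM at P7 (log2 2.22 ± 0.238, adjusted p = 9.35e-05). Spo11, which cuts DNA to start recombination, was at 0.723, 0.753 and 0.606 CPM at P4 and at 2.86, 2.49 and 2.60 CPM at P7 (log2 1.93 ± 0.281, adjusted p = 0.000555). The rise took in genes of meiotic chromosome structure and cohesion: Sycp1 (2.47), Sycp2 (2.53), Rec8 (2.53), Smc1b (2.41) and Stag3 (2.22). It also took in the break factors Mei4 (2.69), Mei1 (1.97) and Ankrd31 (3.33), and Prdm9 (1.57), which places the breaks. The recombination genes Dmc1 (0.41), Meiob (1.22), Msh5 (0.09) and Spata22 (0.32) did not pass, nor did Rad21l, Syce2 or Ythdc2. Sycp1 and Sycp3 were highest in P7 cKO library 1.

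Leaving out P7 cKO library 1 gave the same numbers of rises in these lists: 22 for germ cell genes in general, 22 for the piRNA pathway, 25 for meiosis, 11 for differentiating and 15 for undifferentiated spermatogonia. In the differentiating list 2 genes then fell in place of 1. The lists share members: Tdrd1, Piwil2 and Ddx4, for example, are in more than 1 of them. Genes of spermatids, which do not yet exist at this age, were near the floor. Their summed level was 19.1, 21.9 and 18.3 RPM at P4 and 53.4, 28.7 and 23.9 at P7, the first P7 library being the highest, and 3 of 20 passed (Tssk2, Tnp1 and Tssk1), against 1 without that library. The list median fell from 1.07 to 0.24 without it. The defining gene Prm1, a protamine, had 134 reads in P7 cKO library 1 and 30 and 34 in the others. The part of these transcripts in the other differences of that library was not tested.

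Promoter sequences are shown for 4 of the risers to set the letters beside the values: Stra8 for its repeated CCAAT boxes, Dazl and Mov10l1 as members with the NRF1 core, and Mael as a piRNA gene without it. They are the 250 bases before the annotated start site, from RefSeq on GRCm38.p6, written 5′ to 3′ on the gene's strand. Capitals mark the motifs searched on both strands: CCAAT, the NRF1 core GCATGCGC, the GC box GGGCGG, the cAMP response element TGACGTCA, the TATA box TATAAA and the E-box CAGCTG.
Stra8, chr6:34920698-34920947, plus strand: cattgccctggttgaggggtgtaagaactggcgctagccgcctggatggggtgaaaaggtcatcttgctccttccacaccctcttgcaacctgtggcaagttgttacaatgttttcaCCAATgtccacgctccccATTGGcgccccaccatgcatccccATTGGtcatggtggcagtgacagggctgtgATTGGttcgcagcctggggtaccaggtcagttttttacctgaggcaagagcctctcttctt
Dazl, chr17:50293621-50293870, minus strand: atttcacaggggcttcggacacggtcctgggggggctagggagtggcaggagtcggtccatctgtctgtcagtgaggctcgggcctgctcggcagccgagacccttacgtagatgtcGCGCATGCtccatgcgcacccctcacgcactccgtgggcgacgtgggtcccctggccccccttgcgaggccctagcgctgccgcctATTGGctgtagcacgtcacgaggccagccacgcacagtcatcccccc
Mov10l1, chr15:88982744-88982993, plus strand: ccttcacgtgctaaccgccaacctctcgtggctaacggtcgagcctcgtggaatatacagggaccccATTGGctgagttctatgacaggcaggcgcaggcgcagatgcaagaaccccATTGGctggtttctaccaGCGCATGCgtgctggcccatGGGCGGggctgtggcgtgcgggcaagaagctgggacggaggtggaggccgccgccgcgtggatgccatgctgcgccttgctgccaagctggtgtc
Mael, chr1:166238745-166238994, minus strand: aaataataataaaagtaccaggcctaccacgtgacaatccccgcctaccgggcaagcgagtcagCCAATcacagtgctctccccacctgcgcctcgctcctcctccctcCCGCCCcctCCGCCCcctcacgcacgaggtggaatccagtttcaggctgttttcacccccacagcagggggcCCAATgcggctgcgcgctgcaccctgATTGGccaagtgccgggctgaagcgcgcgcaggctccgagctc
The Stra8 window held 4 CCAAT boxes, on both strands, and none of the other motifs. Dazl and Mov10l1 each held 1 NRF1 core, with 1 and 2 CCAAT boxes, and Mael held 3 CCAAT boxes and 2 GC boxes.

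Over the 14334 tested genes with a RefSeq promoter (77.8%), here read as 300 bases that reach 50 past the start, 4.56% held the NRF1 core. The share was 5.65% among genes that rose, 4.01% among those that rose by more than 2 log2 units and 2.86% among genes that fell. It was 15.9% (11 of 69) among members of the germ cell lists that rose: Dazl, Fkbp6, Gpat2, Hfm1, Hormad1, Mov10l1, Rnf212, Scml2, Stk31, Syce1 and Tdrd9. CCAAT stood in 38.5% of all windows, in 36.2% of the rising germ cell members in 47.7% of the genes that rose by more than 2 and in 41.8% of those that fell by more than 2. The GC box stood in 56.9% of all windows and in 53.6% of the rising germ cell members. A match of letters says nothing about binding, and these shares were not tested.

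Retinoic acid genes were split. Of 22 tested, 6 rose and 2 fell (36.4% called, beside 29.2% of all genes), with a median of -0.05. With library totals 7 rose and none fell. The risers included Stra8 and Crabp1, the degrading enzyme Cyp26a1, the carrier Rbp4 and the receptor Rarg (0.92). Cyp26a1 was at 1.65, 0.890 and 1.40 CPM at P4 and at 9.02, 6.48 and 4.91 CPM at P7 (log2 2.36 ± 0.342, adjusted p = 0.000538), and Rbp4 was higher by 1.87 (adjusted p = 0.00023). Cyp26c1 also passed, at 0.577 CPM or less in every library, but missed the threshold without P7 cKO library 1 (adjusted p = 0.0544). The synthesising enzymes Aldh1a1 (-0.40) and Aldh1a2 (0.43) did not pass, and Rxra (-0.76) and Dhrs3 (-0.56) fell.

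Among 26 Sertoli cell genes 4 rose and 7 fell (42.3% called, beside 29.2% of all genes), with a median of 0.03. With libraries scaled by their totals, 6 rose and 3 fell (median 0.21). The summed level stayed within 8323 to 9115 RPM in all 6 libraries. Amh, the hormone of immature Sertoli cells that regresses the female ducts, was at 1197, 961 and 914 CPM at P4 and at 328, 408 and 432 CPM at P7 (log2 -1.40 ± 0.177, adjusted p = 0.00025). The inhibin subunit Inha (-0.79), Gata4 (-0.76) and the steroid enzyme Hsd17b1 (-1.26) fell too. Inha lost its call without P4 cKO library 3 (adjusted p = 0.0583).

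Cldn11, the claudin of the Sertoli cell barrier, was at 31.4, 56.0 and 58.6 CPM at P4 and at 214, 177 and 157 CPM at P7 (log2 1.91 ± 0.27, adjusted p = 0.000522). Gata1, a factor of maturing Sertoli cells and of red cell precursors, was at 2.60, 2.12 and 1.48 CPM at P4 and at 12.3, 7.39 and 4.52 CPM at P7 (log2 1.97 ± 0.372, adjusted p = 0.00265). Sox9, which fixes Sertoli cell identity, was at 84.9, 85.1 and 94.4 CPM at P4 and at 90.5, 108 and 105 CPM at P7, a difference of 0.20 ± 0.179 that did not pass (adjusted p = 0.434). Of 20 junction genes of the blood-testis barrier, 4 rose, among them Cldn11, Cldn3 and Tjp3, and 2 fell, and those 2, Cldn5 (-1.42) and Esam (-1.10), are also known from endothelial cells. These 6 of 20 are close to the 29.2% of all genes that were called. With library totals 7 rose and 2 fell, and Tjp3 was lost without P7 cKO library 1 (adjusted p = 0.0589).

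**Figure D3:**
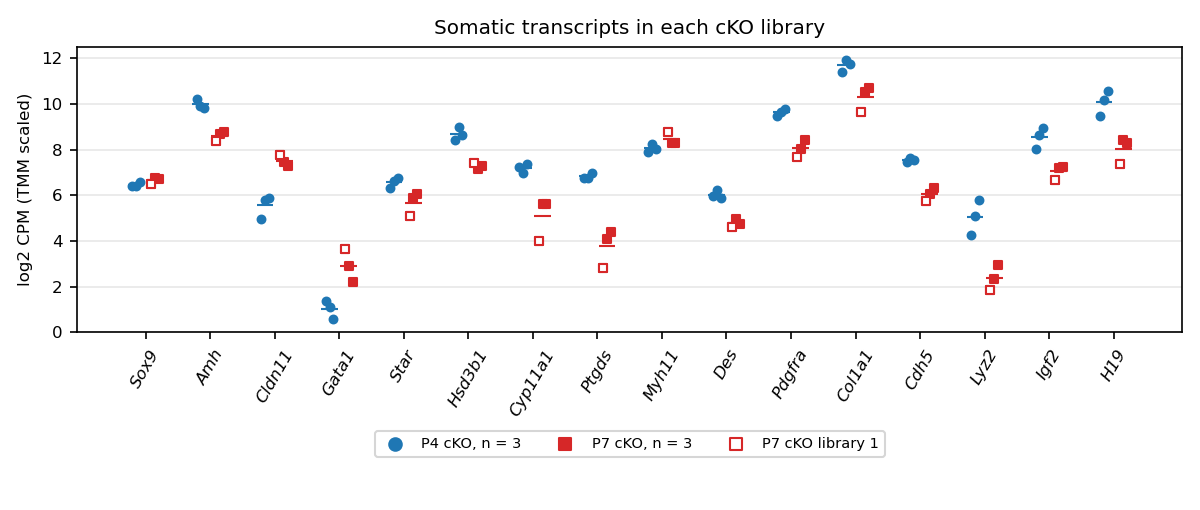
Log2 CPM of somatic genes in each cKO library, in the order Sertoli, Leydig, peritubular, interstitial progenitor and matrix, endothelial, macrophage and imprinted genes. Blue circles are P4 libraries, red squares P7 libraries, the open square is P7 cKO library 1 and bars are means. Sox9 differs little between stages, while Amh, Ptgds, Pdgfra and H19 lie lower at P7.

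Leydig cell genes fell in 8 of 17 cases and none rose (47.1% called, beside 29.2% of all genes, median -0.72). Star, which moves cholesterol into the mitochondrion, was at 78.6, 98.1 and 109 CPM at P4 and at 34.4, 59.4 and 65.6 CPM at P7 (log2 -0.84 ± 0.225, adjusted p = 0.0161), and lost its call without P4 cKO library 3 (adjusted p = 0.0601). Cyp11a1, the first enzyme of steroid synthesis, was at 150, 124 and 164 CPM at P4 and at 15.9, 48.6 and 49.0 CPM at P7 (log2 -1.95 ± 0.347, adjusted p = 0.00233). In both genes P7 cKO library 1 was the lowest. Hsd3b1 (-1.43) and Ptgds (-2.92), a prostaglandin synthase, fell as well. P7 cKO library 1 was the highest of its group for Hsd3b1 and the lowest for Ptgds.

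Insl3, the Leydig cell hormone of testis descent, was at 15, 15.7 and 13.4 CPM at P4 and at 1.28, 8.37 and 9.14 CPM at P7. All P7 values were below the P4 values, but the spread was wide (log2 -1.23 ± 0.636, adjusted p = 0.176), and Insl3 overlaps Jak3 on the genome, so its reads are uncertain. Cyp17a1 (-0.52), which turns progestins into androgens, did not pass. Of 23 genes of cholesterol synthesis and uptake, 3 rose and 2 fell (median -0.01), a share called of 21.7% beside 29.2% of all genes. The counts were 4 and 1 without P7 cKO library 1 and 4 and 0 with library totals.

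The interstitial progenitor list fell in 14 of 15 cases (median -1.35), and the remaining gene, Ly6a (-0.77), did not pass. Pdgfra, the growth factor receptor of these cells, was at 707, 790 and 879 CPM at P4 and at 204, 261 and 346 CPM at P7 (log2 -1.55 ± 0.2, adjusted p = 0.000275). The stages kept well apart in all 6 libraries. The Hedgehog targets Gli1 (-0.89), Ptch1 (-0.96) and Hhip (-1.37), which read the Sertoli cell signal DHH in the interstitium, fell as well, while Dhh itself (-0.11) did not pass. Lum, a matrix proteoglycan, spread from 38 to 139 CPM at P4 and lost its call without P7 cKO library 1 (adjusted p = 0.0847).

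Collagen and matrix genes fell in 22 of 25 cases (median -1.25). Col1a1, a chain of the main fibrillar collagen, was at 2684, 3876 and 3415 CPM at P4 and at 811, 1480 and 1662 CPM at P7 (log2 -1.34 ± 0.257, adjusted p = 0.00292). The summed level of the list was 18980 to 24390 RPM at P4 and 7540, 11220 and 12530 at P7, lowest in P7 cKO library 1. Without that library 24 of the 25 fell, with a median of -1.06. Of 14 peritubular genes 6 fell and none rose (42.9% called, beside 29.2% of all genes, median -0.50). Des (-1.26) and Cald1 (-1.29) fell, while Acta2 (-0.37) and Myh11 (0.40), the contractile genes that define the myoid layer, did not pass.

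Endothelial genes fell in 9 of 15 cases (median -0.92), among them the vascular cadherin Cdh5, at 178, 196 and 184 CPM at P4 and at 54.1, 66.2 and 79.5 CPM at P7 (log2 -1.48 ± 0.167, adjusted p = 0.000125). The transcription factor Erg went the other way, at 4.31, 7.02 and 6.53 CPM at P4 and at 11.8, 22.7 and 18.6 CPM at P7 (log2 1.58 ± 0.272, adjusted p = 0.00157). Macrophage genes fell in 9 of 14 cases (median -1.10), including the complement genes C1qa (-1.13), C1qb (-1.19) and C1qc (-1.07) and the lysozyme Lyz2. Lyz2 was at 19, 34.3 and 55.4 CPM at P4 and at 3.62, 5.10 and 7.76 CPM at P7 (log2 -2.72 ± 0.418, adjusted p = 0.00103). The scavenger receptor Cd163 rose by 1.51 from 0.659 CPM or less at P4 (adjusted p = 0.00782). The erythroid list summed to 12.1 to 54.5 RPM. This sum does not measure red cell RNA, since counts of multicopy genes such as the globins are uncertain here. The globin gene Hba-a1 had 0 reads in all 6 libraries, and none of the listed globin genes was tested. Of 6 tested erythroid genes 1 passed, Alas2 (-1.63), a share of 16.7% beside 29.2% of all genes.

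**Figure D4:**
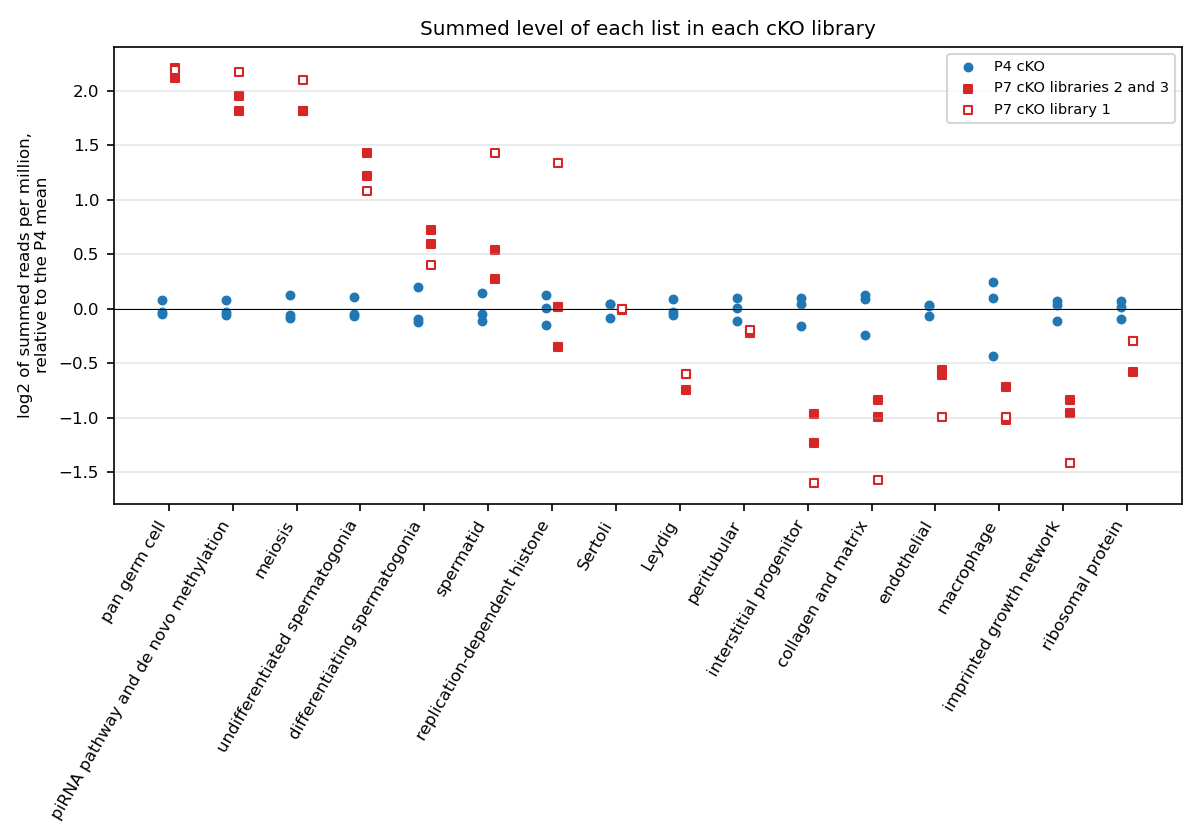
Summed RPM (reads scaled to a common library total) of each list in each cKO library, as log2 relative to the mean of the 3 P4 libraries. Blue circles are P4, red squares P7, and the open square is P7 cKO library 1, which is far above the other P7 libraries for spermatid genes (53.4 against 28.7 and 23.9 RPM) and replication-dependent histone genes (130.3 against 52.3 and 40.5).

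Imprinted genes, expressed from a single parental copy, include a set that drives fetal and early growth and is shut down after birth in many organs. Of 19 tested, 14 fell and 1 rose (median -1.02). H19, a noncoding RNA, was at 709, 1142 and 1517 CPM at P4 and at 164, 337 and 312 CPM at P7 (log2 -2.05 ± 0.314, adjusted p = 0.000922). Its neighbour Igf2, the fetal growth factor, was at 262, 399 and 485 CPM at P4 and at 103, 148 and 150 CPM at P7 (log2 -1.52 ± 0.249, adjusted p = 0.00117). P4 cKO library 1 was the lowest of its group in both, and still above all P7 values. Grb10 (-1.81), Dlk1 (-1.39), Plagl1 (-1.20) and Cdkn1c (-1.02) fell too. Phlda2, a placental growth restrictor, rose, at 0.550, 0.719 and 0.553 CPM at P4 and at 2.95, 2.76 and 2.50 CPM at P7 (log2 2.17 ± 0.342, adjusted p = 0.000903).

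Ribosomal protein genes fell in 40 of 78 cases and none rose (median -0.53), with 23 falling when libraries were scaled by their totals and 56 without P7 cKO library 1. The largest fall was that of the X-linked Rps4x, at 1217, 1250 and 1614 CPM at P4 and at 323, 562 and 523 CPM at P7 (log2 -1.53 ± 0.233, adjusted p = 0.000733), followed by Rpl39 (-1.25) and Rpl10 (-1.11), also on X. Reads of ribosomal protein genes can be shared with their many processed pseudogenes. Genes of oxidative phosphorylation gave 3 rises and 8 falls of 75 (median -0.20), a share called of 14.7% beside 29.2% of all genes. There were 21 falls without P7 cKO library 1, and 3 rises and 1 fall with library totals (median -0.02). Of 34 genes of the mitotic cell cycle, 3 rose and 1 fell (11.8% called, median -0.01), with 7 rises without P7 cKO library 1. The kinetochore gene Cenpf was at 141, 125 and 124 CPM at P4 and at 404, 360 and 379 CPM at P7 (log2 1.55 ± 0.146, adjusted p = 4.51e-05), while the proliferation marker Mki67 (-0.20) did not pass and Cdk1 fell by 0.87 on the log2 scale.

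In the machinery that LSM7 belongs to, the share of genes called with all libraries and TMM scaling was below the 29.2% of all genes. Of 48 core spliceosome genes, 5 rose and 1 fell (12.5%, median 0.06), and of 13 genes of the minor spliceosome 2 rose (15.4%, median 0.26). With library totals 10 core genes and 4 of the minor spliceosome rose and none fell (medians 0.23 and 0.44). In the LSm family of 14 genes, 3 rose (Lsm10, Lsm8 and Lsm14b) and none fell (21.4% called, median 0.20). Lsm8 lost its call in 8 of 20 alternative fits, Lsm14b in 3 and Lsm10 in 2. Without P7 cKO library 1 the counts were 2 higher and 3 lower, and with library totals 5 higher and 0 lower. Prpf3, a protein of the U4/U6 particle, was at 55.2, 62.5 and 49.4 CPM at P4 and at 123, 97.3 and 98.3 CPM at P7 (log2 0.93 ± 0.165, adjusted p = 0.00185).

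Genes that assemble and modify small nuclear RNAs or modify ribosomal RNA gave 8 rises and no fall of 25 (median 0.38). The share called was close to the 29.2% of all genes, though every call was a rise. The risers included the SMN complex members Gemin4 (1.44) and Gemin5 (1.31) and the U6 methyltransferase Mettl16 (1.16). The Cajal body protein Wrap53 (0.87) and the 7SK capping enzyme Mepce (0.84) rose too. Gemin5 was at 51.3, 45.5 and 45.0 CPM at P4 and at 146, 107 and 99.1 CPM at P7 (log2 1.31 ± 0.181, adjusted p = 0.000394). The small RNAs that guide these modifications were poorly covered, as 72 of 119 scaRNA and snoRNA genes could be tested. Of these, 1 passed, Snord52 (1.02, adjusted p = 0.04), and it was lost without P7 cKO library 1 (adjusted p = 0.0803). How well these libraries recover such short RNAs was not tested.

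Of 29 genes of mRNA decay, the other role of LSm proteins, 5 rose and 3 fell (median 0.06), with Patl2 at 2.04 and the nonsense-mediated decay kinase Smg1 at 1.21. That is 27.6% of the list, near the 29.2% of all genes. Without P7 cKO library 1, 8 rose and 3 fell, and with library totals 8 rose and 0 fell. Among 20 targets of p53, 1 rose and 6 fell (median 0.05), with 3 rises without P7 cKO library 1. With library totals 4 rose and 2 fell (median 0.23). With all libraries and TMM scaling, the share called was somewhat above the 29.2% of all genes. Plk2 (-1.30), Zmat3 (-0.96), Fas (-0.77), Pmaip1 (-0.76), Phlda3 (-0.65) and Sesn1 (-0.49) fell, and Gtse1 (1.00) rose. Cdkn1a, the cell cycle inhibitor p21, overlapped between stages, at 3.21, 4.90 and 5.64 CPM against 3.46, 4.32 and 4.11 CPM (log2 -0.21, adjusted p = 0.596). Nor did Mdm2, the ubiquitin ligase of p53, pass (0.07, adjusted p = 0.732). The integrated stress response gave 4 rises, led by Atf3 (1.57), and 2 falls of 20, 6 in all, near the 29.2% share of all genes. Without P7 cKO library 1 there were 6 rises and 3 falls, and with library totals 7 and 1. The interferon list gave 3 rises, led by Oasl2 (1.37), and 2 falls of 23 (median 0.01), 21.7% called beside 29.2% of all genes. Without P7 cKO library 1 it gave 2 rises and 3 falls (median -0.18), and with library totals 5 rises and 2 falls.

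Replication-dependent histone genes, whose transcripts normally lack a poly(A) tail, rose in 10 of 51 cases and none fell. The share called was 19.6%, beside 29.2% of all genes. Their summed level was 51.9, 56.4 and 46.4 RPM at P4 and 130.3, 52.3 and 40.5 at P7. The high P7 level was that of P7 cKO library 1, without which 4 rose, 2 fell and the median went from 1.57 to 0.29. H1f1, a linker histone, was at 11.7 CPM in that library and at 1.86 and 1.90 CPM in the others, all above the P4 values of 0.158 CPM or less.

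Among well expressed genes whose stages did not overlap, the 10 largest falls were Pnmt, Pdyn, Gpnmb, Ccl17, Cbln1, Klkb1, Cnga1, Ftcd, Gldn and Ndnf. Pnmt (chr11:98386623-98388180, plus strand), the enzyme that makes adrenaline, was at 63.8, 54.7 and 82.3 CPM at P4 and at 0.668, 1.68 and 1.94 CPM at P7 (log2 -5.53 ± 0.343, adjusted p = 6.13e-06). Cbln1, a secreted C1q-like protein, was at 496, 475 and 544 CPM at P4 and at 11.1, 39 and 62.5 CPM at P7 (log2 -3.75 ± 0.493, adjusted p = 0.000472). Ccl17, a chemokine, was at 23.1, 24.9 and 23.8 CPM at P4 and at 0.699, 1.18 and 1.6 CPM at P7. P7 cKO library 1 was the lowest in each of these 3 genes. Pdyn, the opioid precursor prodynorphin, fell by 4.80 on the log2 scale. Gpnmb, a glycoprotein of macrophages and pigment cells, varied most at P4, at 0.983, 5.75 and 12.9 CPM.

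The course in WT, from 2 P4 libraries to the summed P7 sample, shares no library with the course in cKO. In WT 4016 genes (21.8%) passed, 2179 higher (11.8%) and 1837 lower (9.97%). Of the genes that rose in cKO, 993 also rose in WT (37.3% of the cKO rises and 45.6% of the WT rises), and 883 fell in both (32.6% of the cKO falls and 48.1% of the WT falls). Calls in opposite directions were few, with 11 higher in cKO and lower in WT and 39 the other way. Across the 13576 genes whose average log2 CPM was at least 1, the fold changes of the courses had a Pearson r of 0.598 and a Spearman rho of 0.484, given as a description since genes are not independent replicates. Of the 5372 cKO calls, 4429 (82.4%) had the same sign in WT.

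The germ cell lists had median fold changes close to or above those of WT. They were 2.3 in cKO and 2.05 in WT for germ cell genes in general, and 2.18 and 2.09 for differentiating spermatogonia. For meiosis they were 1.83 and 1.28, for the piRNA pathway 1.99 and 1.19, and for undifferentiated spermatogonia 0.83 and 0.52. The spermatid genes, near the floor, had the widest gap, at 1.07 in cKO (0.24 without P7 cKO library 1) and -3.01 in WT. Summed levels of germ cell genes in general were lower in cKO at both stages. They were 395 to 432 RPM at P4 beside 594.1 and 664.5 in WT, and 1780 to 1897 at P7 beside 2438. Meiosis genes were at 203 to 235 RPM beside 394 and 420 at P4, and at 757 to 924 beside 1280 at P7. The piRNA genes were lower in cKO at P4 (462.5 to 508 beside 714 and 756), not at P7 (1695 to 2164 beside 1989). The differentiating list overlapped at both stages. Stra8 rose by 4.11 in WT, Kit by 1.96, Dazl by 3.25 and Ddx4 by 2.07. Spo11 was at 2.85 and 2.48 CPM in the P4 WT libraries and at 3.52 CPM at P7, so its start in cKO was lower. The largest rise in cKO, that of Sox3, was 3.98 in WT (adjusted p of the difference between courses 0.0854).

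No gene passed the test of the difference between the courses with edgeR (smallest adjusted p = 0.0626). At an unadjusted p under 0.05 there were 4619 genes (25.1%), DESeq2 called 1720, limma-voom called 0, and edgeR called 3105 when the P7 WT libraries were entered as 2 samples and 1455 without P7 cKO library 1. A single P7 WT sample limits this test. Sox9 had the smallest adjusted p (0.0626), shared with other genes: it was at 32.5 and 51.9 CPM in the P4 WT libraries and at 178 CPM at P7, a rise of 2.08 (adjusted p = 0.000875), beside 0.20 in cKO. Cldn11 rose by 3.53 in WT against 1.91 in cKO (adjusted p of the difference 0.0865). Star was higher by 0.75 at P7 in WT (adjusted p = 0.12) and lower by 0.84 in cKO (adjusted p of the difference 0.0715), and its P4 levels were 41.3 and 39.3 CPM in WT beside 78.6 to 109 CPM in cKO. The blood-testis barrier list had a median of 0.80 in WT and 0.00 in cKO.

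**Figure D5:**
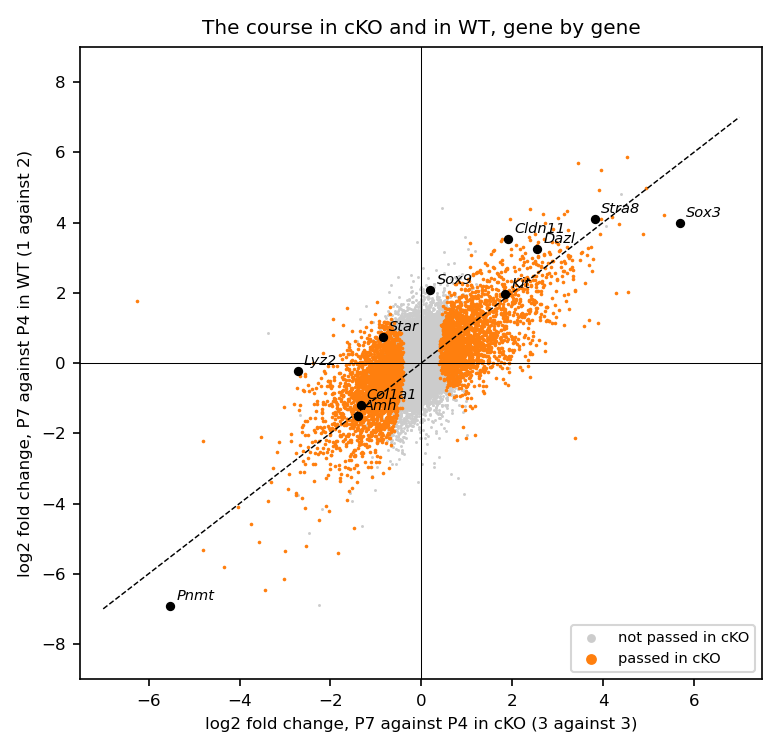
Log2 fold change of P7 against P4 in WT (vertical axis, the summed P7 sample against 2 P4 libraries) against that in cKO (horizontal axis, 3 against 3) for 13576 genes. Orange points passed the test in cKO, the dashed line marks equal changes, and black points are named genes. Most orange points lie in the quadrants where both courses have the same sign, while Sox9 lies on the vertical axis (0.20 in cKO, 2.08 in WT).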

How the data were processed

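Testis RNA was sequenced in 10 libraries, grouped by their titles. The authors deposited 1 table of raw read counts per gene (25239 genes, 3425 with no read, none of the mitochondrial chromosome), per the file header and its whole-number values. The submitters' processing notes name STAR 2.7.11a, featureCounts with Subread 2.0.6, and SAMtools 1.6, after Trim Galore 0.6.10, on GRCm38 (mm10), with quality reports from FastQC 0.12.1 and MultiQC 1.14. The sources used here give neither strand nor multimapping settings, so counts of multicopy, overlapping and antisense genes are uncertain. Most counts under 50 were even (67.8% to 80.0%), as when both mates are counted.

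Counts were fitted with edgeR 4.0.16 in R 4.3.3 (filterByExpr, TMM, robust quasi-likelihood, 1 mean per group, 9 samples, 5 residual degrees of freedom). The biological coefficient of variation was 0.228. On data simulated for this comparison, 200 of 18419 genes were changed and all genes were given the same spread. There 42 of 100 genes changed by 1 log2 unit and 100 of 100 changed by 2 were recovered, with 9 false calls among 151. In the data 5372 genes passed and the spread was estimated gene by gene, so these rates may not hold there. DESeq2 1.42.0 and limma 3.58.1 were alternatives.

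The comparison, the gene lists and the named genes were chosen with earlier results of these data known. Named were the 10 highest and 10 lowest well expressed genes that passed with no overlap (none on chromosome 18), up to 4 members per list by smallest p, and a set list of genes such as Lsm7, Stra8 and Gfra1. Other list members are named as examples, and were chosen after their values were seen. Some members of the lists are not reported here by name.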

Additional observations from a re-analysis of the deposited data

How the results depend on the processing

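The count of genes that differed between P7 and P4 in cKO was 5372. It stayed within 5021 and 6714 under other scaling, filters, tools and sample sets (DESeq2 6060, limma-voom 5397, length and GC offsets 5818), and fell to 2009 when a change of more than 1.5-fold was tested. Leaving out 1 library at a time gave 3520 to 5569 calls. Without P7 cKO library 1, 4713 of the 5569 calls were among the original 5372. Of 133 named genes that passed, 92 kept their call in all 20 alternatives that could be run and none of the 133 changed direction. Gfra1 and Id4, which had not passed, changed sign: Gfra1 ranged from -0.02 to 0.45 when 1 library was left out (-0.01 and -0.02 without P7 cKO library 2 or 3), and Id4 from -0.21 to 0.05 (0.05 without P4 cKO library 2 or P7 cKO library 2), and Id4 was 0.12 with library totals.

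The test of the difference between the courses called 0 genes, 3 with library totals, 1 with length and GC offsets, 431 with no filter on low counts, 1720 with DESeq2 and 3105 with 10 libraries. Leaving out 1 library gave 0 to 1455 calls (716 without P4 WT library 2, 1 without P7 cKO library 2). The cause was not tested, apart from the added sample in the fit of 10 libraries.

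No pairing by replicate number was seen, but 3 libraries per group cannot exclude it. P4 and P7 cKO libraries with the same number had deviations from the group mean correlated at 0.023, -0.162 and 0.136. Those with different numbers were at -0.195 to 0.163. With replicate numbers entered as a block, the cKO course had 6714 calls (10 libraries; 6312 without the block) and 5021 (6 cKO libraries; 5272 without), and the difference between courses had 4311. Lsm7 passed with the block in 10 libraries (-0.68, adjusted p = 0.0218). Low counts limit the scaRNA and snoRNA list, in which 72 of 119 genes could be tested.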

Other observations

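The following groups were put together by shared symbol after their values were seen, and are given as values with no test beyond that of the single genes. Among gene families on the X chromosome, all 4 tested Fthl17 genes, relatives of the ferritin heavy chain, rose (2.92 to 4.55). So did 8 of 9 Xlr genes (median 2.04 in cKO and 1.41 in WT) and 9 of 24 Rhox homeobox genes (median 1.30 in cKO and -0.10 in WT). The Rhox risers included Rhox8 (1.37), which is also in the Sertoli cell list. In the Mage family, most of it also on X, 9 of 18 genes rose, among them Magea4 (3.05) and Mageb16 (3.24), and 2 fell, Mageh1 (-1.15) and Maged2 (-0.87). Xlr5a was at 2.14, 1.95 and 2.21 CPM at P4 and at 20.4, 17.9 and 21.2 CPM at P7 in cKO. Several of these genes are near-identical copies, so their reads can be split or shared. Of all 737 tested genes on X, 22.4% rose and 18.9% fell, beside 14.5% and 14.7% of all genes, and the 4 ribosomal protein genes on X all fell (median -1.18, beside -0.53 for the whole list).

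Among adhesion and cytoskeleton families, 15 of 20 clustered protocadherin beta genes fell and none rose (median -1.38 in cKO and -0.33 in WT). Of 13 septin genes 8 fell and 1, Septin14 (2.19), rose. In the Mmp family of matrix proteases 7 of 14 genes fell, and among Adamts genes and their Adamtsl relatives, which lack the protease part, 11 of 24 fell. None of them rose. The Ttll and Dnah families went the other way, with 7 of 13 Ttll genes and 6 of 14 Dnah genes higher and none lower. Their medians were 0.76 and 0.79 in cKO and 0.14 and 0.18 in WT. Of all genes tested, 14.5% were higher. Without P7 cKO library 1 the counts were 8 of 9 for Xlr, 13 of 20 for protocadherin beta, 8 of 14 for Mmp, 6 of 13 for Ttll and 6 of 14 for Dnah.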
